A study of Mus musculus with 8 samples.

Results

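The genes described here are 8 subunits of RNA polymerase III (Polr3a, Polr3b, Polr3c, Polr3d, Polr3e, Polr3f, Polr3g and Polr3k) and Maf1, the repressor of the enzyme. All 9 were found among the 19938 genes that the array table names. The genes were listed by name, with earlier results of these hearts known, and the row of each gene was chosen by the highest mean over all 8 hearts. That choice affected Polr3e alone, whose kept row had a mean log2 level of 7.22 and whose other row had 6.67. The samples were 4 hearts labelled MHC-Plin5 and 4 labelled control, from male mice of the c57/bl background aged 12 weeks, all labelled as fasted. MHC-Plin5 is the genotype in which Plin5, the gene of the lipid droplet protein perilipin 5, is overexpressed in cardiomyocytes, per the series title. The labels do not say whether the control mice were littermates or carried a transgene of their own. Each level is a log2 RMA value of the mixed cells of a heart sample, so fewer cells of a type and less RNA per cell cannot be told apart.

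RNA polymerase III makes the short RNAs that every cell needs in bulk, among them the transfer RNAs and the 5S ribosomal RNA. The enzyme is brought to its genes by the factor TFIIIB, usually with TFIIIC, and MAF1 binds the polymerase and blocks that step when nutrients are short. The kinase mTORC1 phosphorylates MAF1 and so relieves the block, and MYC binds TFIIIB and raises transcription. One of the subunits exists in alternative forms: Polr3g is abundant in embryonic stem cells and many tumour cells and low in most adult tissues, while its paralogue Polr3gl is expressed broadly.

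The check of the labels was Plin5, with a mean log2 level of 12.39 in the MHC-Plin5 hearts and 8.85 in the controls. The array medians lay between 5.99 and 6.24, with the highest in control 2 (6.24) and MHC-Plin5 4 (6.18). The 7 cardiomyocyte markers, Myh6 and Tnnt2 among them, had differences from -0.18 to 0.02, and 0 were called. In the limma fit over all genes, 415 genes were called higher and 233 lower in MHC-Plin5 hearts, a call being an adjusted p under 0.05. This is 2.08% and 1.17% of the genes tested, and the median difference over all genes was -0.03 on the log2 scale.

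Sequences upstream of Polr3g and Polr3gl are shown because these alternative subunits differed in their response. Each run holds the 250 bases before the start that RefSeq gives for the gene in the mouse build GRCm38.p6, read on the minus strand, at chr13:81711014-81711263 for Polr3g and chr3:96594182-96594431 for Polr3gl. Capitals mark the letters CACGTG, the E-box to which MYC and MAX bind.
Polr3g: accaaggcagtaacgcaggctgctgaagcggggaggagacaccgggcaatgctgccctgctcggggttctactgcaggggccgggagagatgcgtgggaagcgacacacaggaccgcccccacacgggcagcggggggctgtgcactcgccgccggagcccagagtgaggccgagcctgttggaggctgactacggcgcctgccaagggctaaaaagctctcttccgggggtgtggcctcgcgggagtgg
Polr3gl: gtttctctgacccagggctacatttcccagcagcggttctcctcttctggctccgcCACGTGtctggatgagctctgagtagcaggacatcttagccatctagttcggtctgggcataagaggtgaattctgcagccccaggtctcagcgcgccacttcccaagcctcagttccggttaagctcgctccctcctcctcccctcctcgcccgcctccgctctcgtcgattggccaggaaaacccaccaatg
The E-box was found upstream of Polr3gl, with its first base at position -194, and not in the window of Polr3g. Bases C and G made up 68.4% of the Polr3g run and 59.2% of the Polr3gl run. RefSeq windows of 300 bases, which reach 50 bases past the start, were matched for 6 of the 9 members, all but Polr3a, Polr3d and Maf1. Of these 6, the windows of Polr3c (position -237) and Polr3e (position +6) held CACGTG, as did 7.15% of all 32851 windows. None of the 6 held TGATGNAA, the composite site of ATF4 and C/EBP factors, or TGACGTCA, the cyclic AMP response element, on either strand. These letters stood in 3.97% and 1.79% of all windows. A match or its lack describes these letters in this window and no more.

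Polr3g rose 3.07-fold and was the 1 member called. Its log2 levels in control 1 to 4 were 6.18, 6.06, 6.16 and 6.37. MHC-Plin5 1 to 4 had 7.60, 8.12, 7.84 and 7.68. Every MHC-Plin5 heart stood above every control heart, with a gap between the groups wider than the range within either of them. The means were 6.19 ± 0.13 and 7.81 ± 0.23 (SD, n = 4 each), which gives the fold a 95% interval of 2.53 to 3.72. The log2 difference was 1.62 (SE 0.13, limma adjusted p = 9.87e-05), and an exact permutation test (two-sided) gave p = 0.0286, which is the lower limit of a design of 4 against 4. With any single heart left out the difference lay between 1.51 and 1.69 and the adjusted p was at most 0.000842. A test of each gene on its own variance, without the shared variance of limma, gave an adjusted p of 0.0565.

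**Figure D1:**
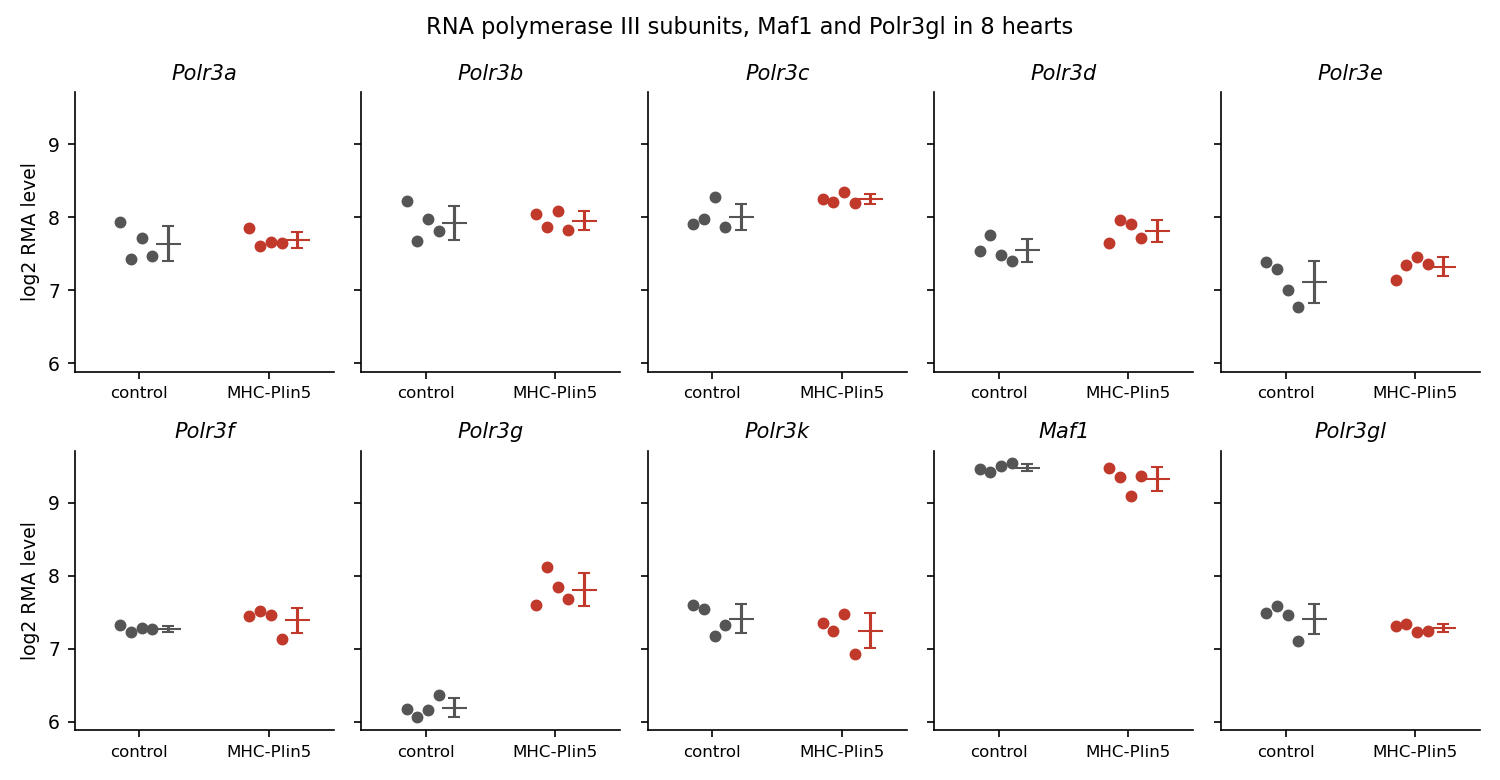
Log2 RMA level (vertical axis) of the 9 members and of the paralogue Polr3gl in the 4 control hearts (grey) and the 4 MHC-Plin5 hearts (red). Each point is a heart, and the bar beside it gives the group mean and SD. The groups are separate for Polr3g (6.06 to 6.37 against 7.60 to 8.12) and overlap in the other 9 panels.

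Polr3g is part of a subcomplex of the enzyme, with Polr3c and Polr3f, that contacts TFIIIB and is needed to start transcription. Polr3c had log2 levels of 7.91, 7.97, 8.27 and 7.87 in the control hearts and 8.25, 8.21, 8.34 and 8.19 in the MHC-Plin5 hearts. Control 3 reached into the MHC-Plin5 range, and the difference of 0.24 (SE 0.11, 95% interval 0.01 to 0.48) was not called, with a limma adjusted p of 0.288. Polr3f lay between 7.23 and 7.33 in control hearts and between 7.14 and 7.52 in MHC-Plin5 hearts. MHC-Plin5 4 was its lowest heart and the other 3 MHC-Plin5 hearts were above all controls, with a difference of 0.12 (95% interval -0.11 to 0.35, adjusted p = 0.639). The partners of Polr3g in this subcomplex thus had intervals that end below 0.5 on the log2 scale, where that of Polr3g starts at 1.34.

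The paralogue Polr3gl, which can take the place of Polr3g in the enzyme, did not pass the test. Control 1 to 4 stood at 7.49, 7.58, 7.46 and 7.11, and MHC-Plin5 1 to 4 at 7.31, 7.34, 7.23 and 7.25. The MHC-Plin5 hearts all lay within the control range, and the difference was -0.13 (SE 0.11, 95% interval -0.37 to 0.12, adjusted p = 0.643). Within each heart the log2 value of Polr3g minus that of Polr3gl was -1.31, -1.52, -1.30 and -0.74 in the controls and 0.29, 0.78, 0.60 and 0.42 in the MHC-Plin5 hearts. These values are on different probe sets, so their sign does not say which transcript is the more abundant, but their change between genotypes can be compared. The ratio of Polr3g to Polr3gl rose 3.35-fold with the MHC-Plin5 genotype (log2 difference 1.74, n = 4 each), and the groups did not overlap. An exact two-sided permutation test gave p = 0.0286, the lower limit for 4 against 4. The gap between the Polr3g groups was wider than the whole range of Polr3gl, so this p repeats that of Polr3g and is no separate support. With any single heart left out the log2 difference of the ratio was between 1.64 and 1.90.

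Polr3a and Polr3b, the largest subunits, form the catalytic centre. Polr3a lay between 7.43 and 7.94 in control hearts and between 7.60 and 7.85 in MHC-Plin5 hearts, and Polr3b between 7.68 and 8.22 and between 7.83 and 8.08. For both genes the MHC-Plin5 values fell inside the control range. Their differences were 0.05 (95% interval -0.23 to 0.33) and 0.04 (-0.24 to 0.32), with adjusted p values of 0.89 and 0.926. In both genes control 1 was the highest and control 2 the lowest of the 8 hearts.

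Polr3d and Polr3e form a pair on the enzyme that acts in initiation and termination. Polr3d was at 7.54, 7.76, 7.48 and 7.40 in control hearts and at 7.65, 7.96, 7.91 and 7.71 in MHC-Plin5 hearts. Control 2 overlapped the MHC-Plin5 range, and the difference of 0.26 (SE 0.11, 95% interval 0.01 to 0.51) was not called, with an adjusted p of 0.279. Polr3e ranged from 6.77 to 7.39 in control hearts and from 7.14 to 7.45 in MHC-Plin5 hearts, with a difference of 0.21 (95% interval -0.10 to 0.52, adjusted p = 0.511). Its second row gave 0.08 (SE 0.13), with levels from 6.39 to 6.98 in controls and from 6.63 to 6.79 in MHC-Plin5 hearts. Polr3k, a small subunit that trims the growing RNA and aids termination, ranged from 7.17 to 7.60 and from 6.93 to 7.48, with a difference of -0.16 (95% interval -0.46 to 0.15, adjusted p = 0.636). MHC-Plin5 4 was again its lowest heart.

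Maf1, the repressor, was not called either. Control 1 to 4 stood at 9.46, 9.42, 9.50 and 9.54, and MHC-Plin5 1 to 4 at 9.48, 9.35, 9.09 and 9.36. MHC-Plin5 1 lay among the controls and the other 3 MHC-Plin5 hearts lay below all of them. The difference was -0.16 (SE 0.10, 95% interval -0.39 to 0.07, adjusted p = 0.488), and the SD was 0.17 in MHC-Plin5 hearts and 0.05 in controls. MAF1 is controlled chiefly through its phosphorylation and its place in the cell, which an RNA array does not measure.

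Across the 9 members, 1 was called higher and 0 lower, beside 2.08% and 1.17% of all genes. The groups did not overlap in 1 member, beside 11.2% of all genes. The 8 members other than Polr3g had a median difference of 0.09 (range -0.16 to 0.26), against -0.03 over all genes, and 6 of them were above 0. At an unadjusted limma p under 0.05 there were 2 of these 8, Polr3c and Polr3d, beside 3300 of all 19938 genes. The 95% intervals of the 8 members together ran from -0.46 to 0.52. A change in any of these 8 by more than 1.43-fold thus lies outside its interval.

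**Figure D2:**
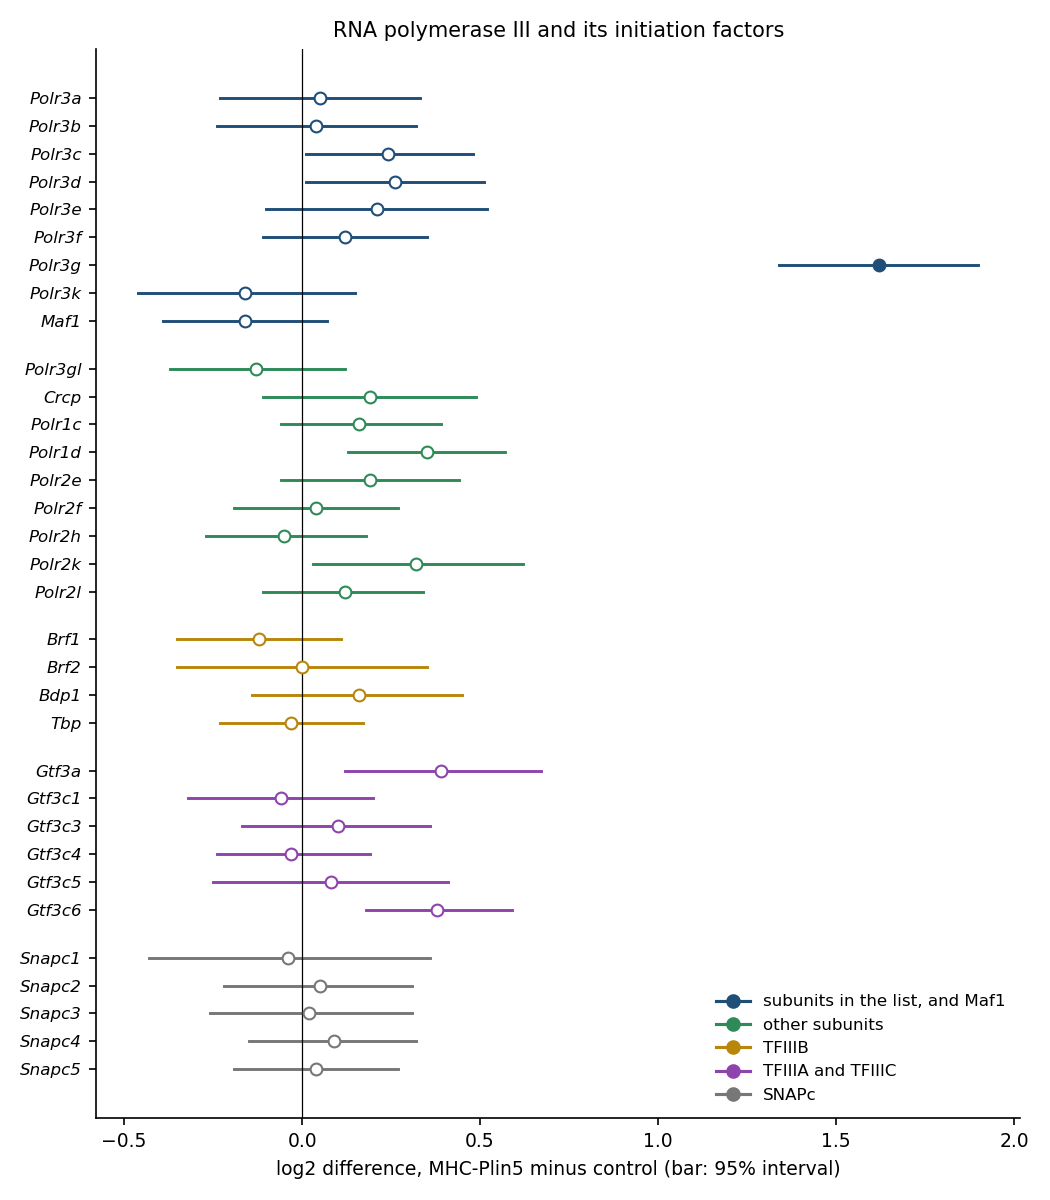
Log2 difference between MHC-Plin5 and control hearts (horizontal axis, points) with its 95% interval (bars) for the 9 members, 9 other subunits and the initiation factors of RNA polymerase III. Filled points are called at a limma adjusted p under 0.05. Polr3g (1.62) is the one filled point, and the remaining differences lie between -0.16 and 0.39.

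None of the 9 other measured subunits was called, most of which the enzyme shares with RNA polymerases I or II. Over all genes 2.08% were called higher and 1.17% lower, so 0 calls among 9 genes says little about them. The differences of these 9 ran from -0.13 to 0.35 with a median of 0.16. An unadjusted limma p under 0.05 was reached by 2 of the 9 (over all genes, by 3300 of 19938). Polr1d, shared with polymerase I, had the smallest p of them, its control level being 7.91 ± 0.10 and its MHC-Plin5 level 8.26 ± 0.12 (SD, n = 4 each). Its groups did not overlap, but the difference of 0.35 (SE 0.10) had an adjusted p of 0.0944, which became 0.0452 among genes with a mean of 7 or more. Polr2k and Polr2e, shared by all 3 polymerases, had differences of 0.32 (adjusted p = 0.251) and 0.19 (adjusted p = 0.449).

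The initiation factors were likewise short of the threshold, with Gtf3c6 just above it, beside 2.08% of all genes called higher and 1.17% lower. In TFIIIB 0 of 4 genes were called, with Brf1 at -0.12, Brf2 at 0.00, Bdp1 at 0.16 and Tbp at -0.03 on the log2 scale. In TFIIIA and TFIIIC 0 of 6 were called. An unadjusted limma p under 0.05 was reached by 2 of these 6, against 0 in TFIIIB, 0 in SNAPc and 3300 of all 19938 genes. Gtf3c6, a small subunit of TFIIIC, went from 8.78, 8.66, 8.76 and 8.78 in control hearts to 9.27, 9.10, 9.14 and 9.01 in MHC-Plin5 hearts, a difference of 0.38 (SE 0.09). Its limma adjusted p of 0.05005 was just above the threshold, so the call of this gene changed with the setting: it was called under 7 of 14 other settings and without MHC-Plin5 4. Gtf3a, which encodes the 5S rRNA gene factor TFIIIA, had a difference of 0.39 (SE 0.13, adjusted p = 0.129), also without overlap between the groups. Of the SNAPc genes, which serve polymerase III genes with upstream promoters, 0 of 5 were called and the differences ran from -0.04 to 0.09.

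Among 12 measured regulators of the enzyme, Myc was the 1 called gene, beside 2.08% of all genes called higher and 1.17% lower. Myc, the transcription factor that activates polymerase III through TFIIIB, had a mean of 6.85 ± 0.17 in control hearts (SD, n = 4) and stood at 8.74, 9.74, 9.37 and 8.77 in MHC-Plin5 hearts. The fold was 4.93 (limma adjusted p = 0.000232), with MHC-Plin5 2 the highest heart, as for Polr3g. The other 11 regulators, which include Mtor, the tumour suppressors of the Rb1 family and the casein kinase subunits Csnk2a1 and Csnk2a2, had differences from -0.09 to 0.28. Of the genes of the sister enzymes, 0 of 6 subunits found only in polymerase I and 0 of 7 found only in polymerase II were called, with medians of 0.05 and 0.03 and 2 and 1 at an unadjusted limma p under 0.05. Of 7 initiation and termination factors of polymerase I, 0 were called and 1 reached that level, against 3300 of all 19938 genes. That gene was Taf1d, a subunit of the polymerase I factor SL1, with a difference of 0.77 (SE 0.26, adjusted p = 0.159), overlapping groups and 9 rows on the array, of which the brightest was used. Among the subunits, Polr1b and Polr2g had the smallest p of their lists (0.34, adjusted p = 0.183, and 0.27, adjusted p = 0.2).

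The genes whose profile over the 8 hearts was nearest to that of Polr3g were Slc6a9, Atf4, Psat1, Sars and Trib3. Likeness was measured as the root mean square difference between profiles, each gene centred on its own mean over the 8 hearts, and these genes were at 0.168 to 0.188 on the log2 scale, where the median over 19937 genes was 0.862. Slc6a9, a glycine transporter, stood at 7.25, 7.35, 7.22 and 7.42 in control hearts and at 8.95, 9.35, 9.15 and 9.24 in MHC-Plin5 hearts. Atf4, a transcription factor, stood at 7.43 ± 0.15 in control hearts (SD, n = 4) and at 8.62, 9.16, 9.22 and 8.70 in MHC-Plin5 hearts. Psat1, an enzyme of serine synthesis, had a difference of 1.54, Sars, the cytosolic seryl-tRNA synthetase, of 1.39 and Trib3, a pseudokinase, of 1.55. Most of this likeness is the shared step between the groups, as any gene with a step of about that size comes near. Myc was the 76th nearest gene at 0.384, and Polr3gl was at 0.904. Of these 5 genes, Trib3 had TGATGNAA in a promoter window (position +15), and 0 had CACGTG.

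**Figure D3:**
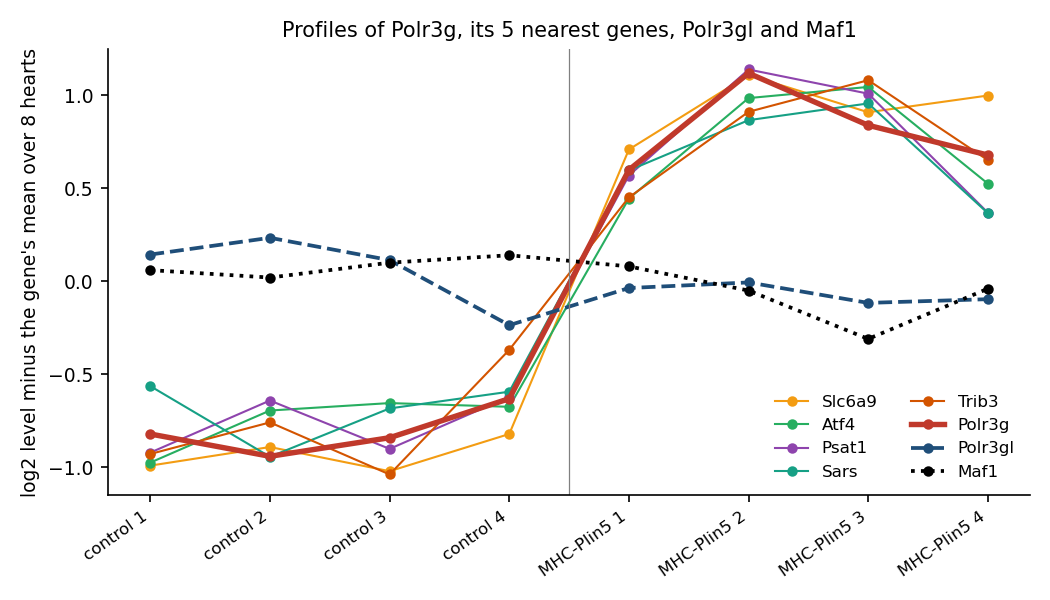
Log2 level minus the mean of each gene over the 8 hearts (vertical axis) in each heart (horizontal axis) for Polr3g, its 5 nearest genes, Polr3gl and Maf1. Lines join the points of a gene and imply no order among hearts. Polr3g and its nearest genes are below 0 in the 4 control hearts and above 0 in the 4 MHC-Plin5 hearts, while Polr3gl and Maf1 stay between -0.31 and 0.24.

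Around Maf1 the nearest profiles were those of Rnaseh2a, a subunit of an RNase, Arhgap24, a GTPase activating protein, the lipid enzyme Agpat2 and the mitochondrial ribosomal proteins Mrpl55 and Mrpl1. They were at 0.0382 to 0.0534, against a median of 0.214 over all genes. Their differences lay between -0.20 and -0.10, and 0 of the 5 were called. A gene that moves as little as Maf1 has many near neighbours by this measure.

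Transfer RNA handling genes were among those called. Of 27 measured genes that bind, cut, modify or export polymerase III transcripts, 4 were called higher and 0 lower, with a median of 0.10. Over all genes 2.08% were called higher and 1.17% lower. An unadjusted limma p under 0.05 was reached by 8 of the 27 (over all genes, by 3300 of 19938). Xpot, the export receptor of transfer RNAs, rose from 8.76, 8.78, 8.89 and 8.59 in control hearts to 9.87, 10.22, 10.08 and 10.16 in MHC-Plin5 hearts. The rise was 2.51-fold (log2 difference 1.33, SE 0.11, limma adjusted p = 0.000117) and was the 11th nearest profile to Polr3g. The other 3 act on transfer RNAs directly. RefSeq windows were matched for 3 of these 4 called genes, all but Trnt1, and all 3 held CACGTG (Xpot at position -231, Trmt61a at +26 and Mettl1 at +31), beside 7.15% of all windows. Trmt61a also held TGACGTCA at position -20, and 0 of the 3 held TGATGNAA. The processing genes that were not called were not searched for these letters, so a link between the letters and the calls was not tested. Polr3c, Polr3e and Polr3gl, which were not called, also held CACGTG, and Polr3g did not.

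Trmt61a, the catalytic subunit of an adenosine methyltransferase, was at 6.26, 6.55, 6.31 and 6.43 in control hearts and at 6.79, 7.02, 7.30 and 7.17 in MHC-Plin5 hearts (difference 0.68, SE 0.12, adjusted p = 0.0156). Mettl1, which methylates guanosine in transfer RNAs, was at 7.65, 7.58, 7.80 and 7.99 and at 8.45, 8.51, 8.51 and 8.17 (0.65, SE 0.12, adjusted p = 0.017). Trnt1, which adds the CCA end, was at 6.92, 6.59, 6.76 and 6.76 and at 7.32, 7.27, 7.41 and 7.25 (0.55, SE 0.10, adjusted p = 0.0144). In all of them the MHC-Plin5 hearts stood above every control, which adds little for genes picked by their call on these same hearts. Over the whole list the groups did not overlap in 8 of 27 genes, in either direction (over all genes, 11.2%). The partners of Trmt61a and Mettl1, Trmt6 (0.32, adjusted p = 0.218) and Wdr4 (0.39, adjusted p = 0.213), picked after their values were seen, were not called. The calls depended on single hearts: that of Mettl1 was lost on leaving out any of control 1 to 3 or MHC-Plin5 2, that of Trmt61a without control 1 or control 3 and that of Trnt1 without control 3, which left 1 to 4 calls in the list. Xpot kept its call with any single heart left out.

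**Figure D4:**
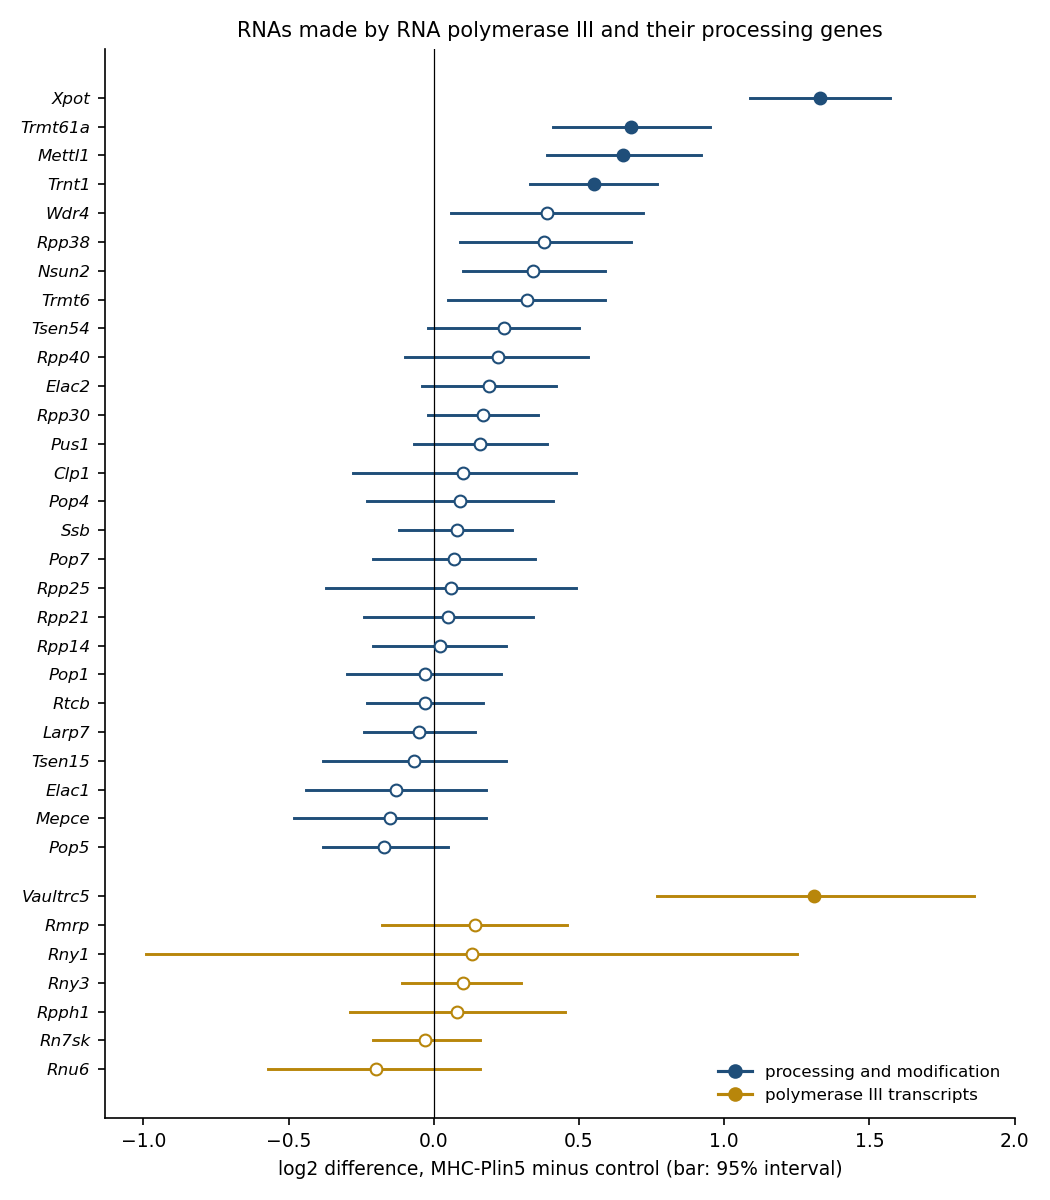
Log2 difference between MHC-Plin5 and control hearts (horizontal axis, points) with its 95% interval (bars) for 27 genes that process polymerase III transcripts and for 7 of those transcripts, sorted by size. Filled points are called at a limma adjusted p under 0.05: Xpot, Trmt61a, Mettl1, Trnt1 and Vaultrc5.

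Of 7 named transcripts of the enzyme on the array, 1 was called, beside 2.08% of all genes called higher and 1.17% lower. Vaultrc5, a vault RNA, was at 8.45, 8.95, 9.15 and 7.94 in control hearts and at 9.68, 10.03, 10.38 and 9.65 in MHC-Plin5 hearts (difference 1.31, SE 0.25, adjusted p = 0.0186). The groups were separate, and the call ended without control 1 or MHC-Plin5 2, with an adjusted p of at most 0.0708 over the hearts left out. It also ended when the p was adjusted over every row of the table. The RNA of the 7SK particle, Rn7sk, had a difference of -0.03 (95% interval -0.21 to 0.16). It lay at 14.08 to 14.19 in all hearts, close to the highest value of the table (14.66). Whether its signal could still rise there was not tested. The RNA components of RNase P and RNase MRP, Rpph1 and Rmrp, had differences of 0.08 and 0.14. The Y RNA Rny3 had 0.10 (95% interval -0.11 to 0.30). The Y RNA Rny1 had 0.13 with an interval of -0.99 to 1.25, its MHC-Plin5 hearts ranging from 7.12 to 9.83, so its change stayed undetermined. The U6 spliceosomal RNA Rnu6, close to the lowest values of the table, had -0.20. One 5S rRNA row, n-R5s136, picked after its values were seen, had 0.20 (SE 0.28). Short RNAs bind poorly to the silica columns of the kind used for extraction. Transfer RNAs were not analysed here.

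The summed marker levels of other cells overlapped between the groups, except those of endothelial cells. The 5 measured markers of dividing cells had 0 calls and differences from -0.05 to 0.19, and their summed log2 level ranged from 28.2 to 29.9 in control hearts and from 28.4 to 29.8 in MHC-Plin5 hearts. The 5 macrophage markers had 0 calls and differences from 0.25 to 0.37, with summed levels of 38.4 to 40.1 and 38.8 to 42.7. The 6 fibroblast markers, also with 0 calls, had differences from 0.07 to 0.40 and sums of 54.5 to 57.2 and 55.2 to 58.9. The 5 atrial markers had 0 calls and differences from 0.24 to 1.17. Their sums were 36.2 to 56.6 and 40.2 to 58.1, a wide range within both groups. The 5 endothelial markers had 0 calls and differences from -0.27 to 0.03, and their sums were 53.2 to 54.1 in control hearts and 52.5 to 53.1 in MHC-Plin5 hearts. The smooth muscle, lymphocyte and red blood cell lists (4, 5 and 2 measured markers) also had 0 calls. Their differences ran from -0.38 to 0.62, from -0.51 to -0.10 and from -0.21 to 0.11. At an unadjusted limma p under 0.05 there was 1 marker each in the fibroblast, atrial and lymphocyte lists and 0 in the others. Over all genes 3300 of 19938 were at that level. The part of these cells in the Polr3g difference was not tested.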

How the data were processed

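Whole-transcript Affymetrix arrays measured RNA of 4 MHC-Plin5 and 4 control hearts, RNA being isolated on Qiagen columns per the labels' protocols. The deposited log2 values came from RMA, run by the authors with Affymetrix Expression Console according to the submitters' processing notes. Its version, settings and genome build are not given in the sources used. The table held 35556 rows, with 1 gene symbol for 21789, several for 1621 and none for 12146 by GEO's platform annotation. Of the first, 21698 matched the RefSeq table of GRCm38.p6 by gene ID and 0 symbols changed. For the 999 genes with several rows the brightest row was taken, giving 19938 genes, and dim genes were not filtered out. All 9 members passed the alternative filters at a mean of 5 and 7, Polr3g at 7 through its MHC-Plin5 hearts, its control mean being 6.19.

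The test was lmFit with eBayes from limma 3.58.1 in R 4.3.3, genotype being the one term, two-sided, with Benjamini-Hochberg adjustment over all genes. Single values had an exact permutation test (scipy 1.17.1). The 95% intervals use limma's moderated SE. Members and 19 gene lists were chosen with earlier results of these data known, and no list was tested as a set. Named genes are the members, every called gene or otherwise up to 3 genes with the smallest p of each list, and the 5 nearest profiles of Polr3g and Maf1, shortened for the lists of polymerases I and II and of SNAPc. The labels do not say that the heart numbers pair hearts across groups. Deviations of same-numbered hearts correlated at 0.187, 0.0254, -0.107 and -0.0403. The labels count separate mice, and 4 arrays per group limit the precision. Scan dates were not used here, so no batch was tested. A comparison of the Polr3g and Polr3gl proteins was planned and not made. Promoter sequences are those of RefSeq.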

Additional observations from a re-analysis of the deposited data

Results flagged for a closer look

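In 3 of 58 groups of 4 hearts, taken over the members and some of the genes named beside them, a heart stood apart from the other 3. The gap was a share of the group's range above Dixon's 95% limit. Chance flags about 1 group in 20. None of them was a member. In the MHC-Plin5 hearts, MHC-Plin5 1 was high in Gtf3a (9.24 against 8.98 to 9.01, a share of 0.881). Control 1 was low in Atf4 (the other 3 being at 7.48 to 7.52, a share of 0.860), and MHC-Plin5 3 was low in Arhgap24 (a share of 0.856). The remaining named genes were left out of this check. Hearts stood apart in some of those too, for example MHC-Plin5 4 in Rpph1 (13.58 against 12.88 to 12.91).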

How the results depend on the processing

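Under 14 other settings Polr3g kept a log2 difference of 1.58 to 1.68. It was called in all of them but the test of each gene on its own variance (adjusted p = 0.0565), where the members called were 0, Myc was not called (0 regulators) and 1 processing gene, 0 transcripts, and 23 higher and 5 lower genes in all were called. Polr3g passed the filter at a mean of 7 through its MHC-Plin5 hearts, its control mean being 6.19. The other 8 members were called under none of the 14 settings, nor with any single heart left out. With the heart number as a replicate block, Polr3g had 1.62 (adjusted p = 0.00139) and no member, subunit or factor changed its call, and the numbers are not known to pair hearts. TFIIIA and TFIIIC genes had 1 call with filters at 5 or 7, an intensity trend with or without robust variances, the mean over rows or the array median as a covariate, and 2 with array weights. Other subunits had 1 call with the filter at 7. Polymerase I subunits had 1 with array weights or without the 2 arrays with the highest medians, and polymerase I factors 1 with array weights. At an adjusted p under 0.01, 1 processing gene, 0 transcripts, and 129 higher and 40 lower genes were called. With p adjusted over every row, 0 transcripts and, of the genes kept, 170 higher and 59 lower were called. Array weights called 884 genes higher and 741 lower, and a further quantile normalization called 355 lower. With each heart left out in turn, the processing genes called were 1 to 4, the transcripts 0 to 1, TFIIIA and TFIIIC genes 0 to 1, polymerase I factors 0 to 1, and all genes 170 to 614 higher and 56 to 560 lower. For Polr3g minus Polr3gl the values were 1.64 to 1.90. The cause of these moves was not tested.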
